A study of Mus musculus with 6 samples.

Results

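The 10 genes described here encode the angiomotins and other proteins of apical cell junctions that bind YAP or LATS, namely Amot, Amotl1, Amotl2, Nf2, Wwc1, Wwc2, Frmd6, Ptpn14, Wtip and Ajuba. They were picked by symbol from a table of 24421 symbols, for what their proteins do, with earlier results of these data known. All 10 passed the filter on low counts, as did 15988 symbols in all, and the lowest count of any of them in any sample was 1350. Cochleae of wild-type mice at postnatal day 2 were kept as explants, and RNA was sequenced from 3 samples labelled control and 3 labelled neomycin, each a pool of 6 to 8 cochleae. Neomycin is an aminoglycoside antibiotic that kills hair cells (HCs), the sensory cells of the cochlea. The protocol gave a 12 h culture, 1 mM neomycin for 6 h and 5 more days with 10 μM EdU, a label of newly made DNA. That text stands on all 6 samples, and the treatment label alone separates the groups. According to the study's methods, the modiolus, the tectorial membrane and the anlage of the stria vascularis were removed, so an explant still held HCs, supporting cells (SCs), other epithelium and mesenchyme. The labels do not say that the pools were separate cultures, so the p-values measure the spread between these samples, which may be technical.

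The Hippo pathway is a kinase cascade in which MST kinases activate LATS kinases, and LATS phosphorylates the coactivators YAP and TAZ so that they stay out of the nucleus. Much of this control takes place at cell junctions, where scaffold proteins gather the kinases or hold YAP itself. NF2 (merlin) recruits LATS to the membrane, WWC1 (KIBRA) and WWC2 work with it, and FRMD6 (willin) is a related FERM-domain protein. The angiomotins and the phosphatase PTPN14 bind YAP through their PPxY motifs and keep it in the cytoplasm. AJUBA and WTIP are LIM-domain proteins with the opposite role, since they bind LATS at adherens junctions and hold it inactive.

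The samples held between 50471116 and 66068108 counts. Of 14 HC markers, 13 were lower in the neomycin samples, and their summed level was 583 to 725 CPM (counts scaled to library size) in control and 105 to 137 CPM after neomycin. Of 10 endothelial markers 7 were lower (median log2 fold change −1.94), with summed levels of 312 to 354 CPM and 298 to 351 CPM. Most of the endothelial sum was Emcn (mean 252 CPM in control and 273 CPM after neomycin, adjusted p = 0.329 by edgeR). Of 10 SC markers 3 were lower and 2 higher, with sums of 6511 to 6978 CPM and 7488 to 7953 CPM. Most of the SC sum was Epyc (mean 5531 CPM in control and 6385 CPM after neomycin, adjusted p = 0.132 by edgeR). Prox1, Fgfr3 and Lfng fell, and Gjb6 and Fabp7 rose. Of 6 general epithelial markers 0 were lower and 1 was higher, with sums of 1921 to 2157 CPM and 2144 to 2388 CPM. Macrophage markers were higher in 4 of 8 (75.6 to 96.9 CPM summed in control, 104 to 133 CPM after neomycin) and neuronal markers lower in 3 of 8 (166 to 231 CPM and 134 to 138 CPM), while 3 of 10 mesenchymal markers were lower and 2 higher and 2 of 7 Schwann cell markers were lower. No marker of these lists was at 0 throughout. In bulk tissue, fewer cells of a type and less RNA per cell cannot be told apart, and the part of these marker changes in the results below was not tested. Fold changes also fell with transcript length, by 0.13 on the log2 scale per doubling of exon length (Spearman's rho −0.41 across 15853 genes, which are not independent replicates), and 8 of the 10 genes have exons longer in sum than the median of 4253 bases. For the 10 genes and the pathway lists below, values with this trend removed are therefore given where they change the call of a named gene or the count of a list. They are not given for the cell type markers above, whose counts stand without that correction.

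After neomycin, 7 of the 10 junctional regulators were lower and 0 were higher at an adjusted p under 0.05. Over all genes tested, 29.0% were called, 16.1% lower and 12.9% higher. At an adjusted p under 0.01, 6 of the 10 were lower, against 8.32% of all genes. Nf2, Wwc2, Amotl2, Wwc1, Ptpn14, Amotl1 and Frmd6 fell, while Ajuba, Amot and Wtip did not pass the test. By role, 7 of the 8 genes whose proteins restrain YAP were lower, against 0 of the 2 LIM genes. This split was drawn with the values known, and the difference was not tested. The LIM genes Wtip (2383 bases of exon) and Ajuba (3646) are also the only ones of the 10 below the median length. Role and length therefore cannot be told apart in this split. Once the length trend was removed, the log2 fold change was −0.17 for Ajuba and −0.00038 for Wtip. It was −0.19 for Amotl1 and Frmd6 and −0.18 for Ptpn14, and none of these genes was called. With a fold change over 1.5 also required, Nf2 and Wwc2 remained, 2 of 10 lower and 0 higher, against 8.84% of all genes called by this rule, 6.60% lower and 2.24% higher. The median log2 fold change of the 10 genes was −0.42, and that of all genes was −0.00408 with quartiles of −0.24 and 0.21. The same 7 genes had every neomycin sample below every control sample, which held for 22.5% of all genes, and none had every neomycin sample above every control sample, which held for 21.0%. With the length trend removed, 4 of the 10 were lower and 1, Amot, was higher, while 12.3% of all genes in that fit were lower and 11.5% higher.

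**Figure D1:**
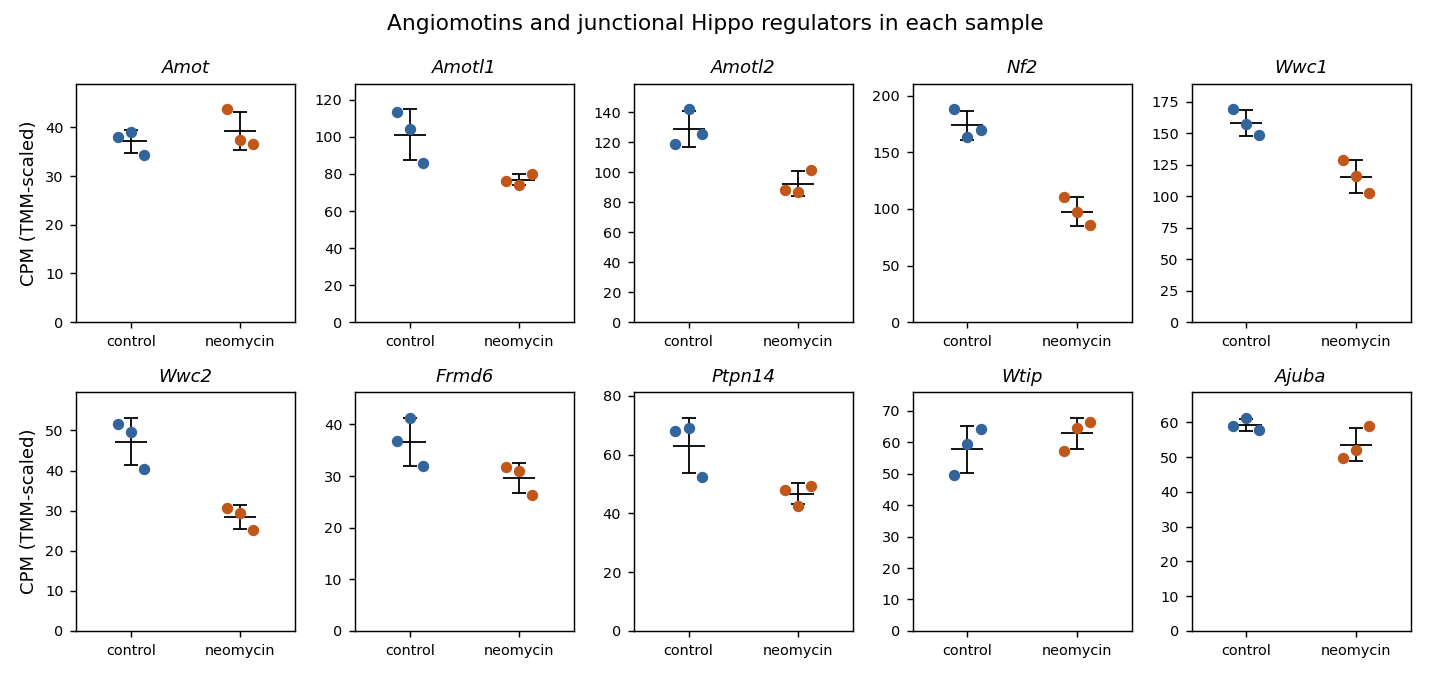
CPM (scaled by TMM factors) of each of the 10 genes in the 3 control (blue) and 3 neomycin (orange) samples, with the mean and SD of each group as bars; each panel has its own vertical axis from 0. Nf2 went from a mean of 174 to 97.5 CPM, while the groups of Amot, Wtip and Ajuba overlapped.

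**Figure D2:**
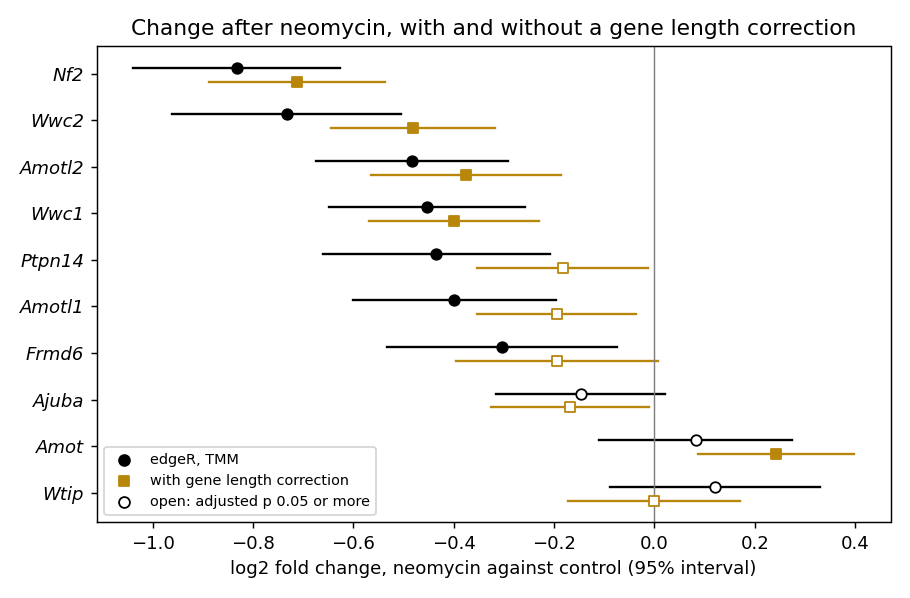
log2 fold change of each gene, neomycin against control, with its 95% interval, as fitted and with the length trend removed. Nf2 had the largest fall of the 10 genes in both fits, and Amot lay at 0.08 in the first and 0.24 in the second.

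Nf2, on chr11:4765845-4849536 (mm10, minus strand), showed the largest change of the 10 genes. It stood at 188, 163 and 170 CPM in the control samples and at 110, 96.9 and 85.4 CPM in the neomycin samples. The groups were far apart, with the lowest control sample well above the highest neomycin sample. Its mean fell from 174 ± 12.9 to 97.5 ± 12.5 CPM (SD, n = 3 each), which is 43.8% lower (log2 fold change −0.83, SE 0.10, adjusted p = 0.000101 by edgeR). The call held in all 15 alternative fits, and the value was −0.71 with the length trend removed.

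The KIBRA genes both fell. Wwc1 (chr11:35838400-35980527, minus strand) was at 169, 157 and 148 CPM in control and 128, 116 and 102 CPM after neomycin, and the groups did not overlap. The log2 fold change of Wwc1 was −0.45 (SE 0.09, adjusted p = 0.00335). Wwc2 (chr8:47823959-47990924, minus strand) was the less abundant of the pair, at 51.5, 49.6 and 40.5 CPM in control and 30.7, 29.4 and 25.1 CPM after neomycin. It was 39.8% lower (log2 fold change −0.73, SE 0.10, adjusted p = 0.000460). Both genes were called in all 15 alternatives, and removal of the length trend took Wwc2 to −0.48 (adjusted p = 0.000801), which is below a 1.5-fold change. Exons of Cldn22, a claudin gene on the opposite strand, overlap those of Wwc2 over 995 bases; Cldn22 had 265 to 431 counts per sample, did not pass the test (log2 fold change 0.33, adjusted p = 0.110), and the strand setting of the counting was not given in the sources used here.

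Frmd6 (chr12:70825514-70902234, plus strand) was at 36.7, 41.2 and 31.9 CPM in control and 31.7, 31.0 and 26.3 CPM after neomycin. The lowest control and the highest neomycin sample almost met. Its log2 fold change of −0.30 (SE 0.11, adjusted p = 0.0480) was called in 8 of the 15 alternatives, the fewest among the 7 genes. The call was lost without control 1 (adjusted p = 0.0879), control 2 (0.219), neomycin 2 (0.0957) or neomycin 3 (0.181), with limma-voom (0.0521) and with the length trend removed (0.152).

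Among the 3 angiomotin genes, Amotl2 and Amotl1 fell and Amot did not pass the test; the difference between them was not tested in the fit. Amotl2 (chr9:102716672-102733418, plus strand) was at 119, 142 and 126 CPM in control and 88.2, 86.7 and 102 CPM after neomycin. All neomycin samples lay below the control samples, and the mean was 28.4% lower (log2 fold change −0.48, SE 0.09, adjusted p = 0.00213), with the call kept in all 15 alternatives. Amotl1 (chr9:14541966-14645056, minus strand) was at 113, 104 and 86.2 CPM in control and 76.4, 74.0 and 80.0 CPM after neomycin. The neomycin samples were close together just under the lowest control sample (log2 fold change −0.40, SE 0.09, adjusted p = 0.00795). The call of Amotl1 was lost with the length trend removed (−0.19, adjusted p = 0.0713).

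Amot, the founding member of the angiomotin family (chrX:145446425-145505181, minus strand), was at 38.0, 39.0 and 34.4 CPM in control and 43.8, 37.5 and 36.7 CPM after neomycin. These groups overlapped, and the log2 fold change was 0.08 with a 95% interval of −0.11 to 0.27 (adjusted p = 0.517). With the length trend removed it was called higher (0.24, adjusted p = 0.0276), while without neomycin 1 it was −0.0019 (adjusted p = 0.989).

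Ptpn14 (chr1:189728268-189876695, plus strand) was at 67.9, 69.1 and 52.2 CPM in control and 48.0, 42.6 and 49.5 CPM after neomycin. Control 3 lay near the neomycin samples and the other control samples well above them. The log2 fold change was −0.44 (SE 0.10, adjusted p = 0.00899). This call was lost without control 2 (adjusted p = 0.0539) or neomycin 2 (0.0579), and the value was −0.18 (0.112) with the length trend removed. An annotated antisense RNA overlaps 177 bases of its exons.

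Neither LIM gene passed the test. Ajuba (chr14:54567472-54577558, minus strand) was at 58.8, 61.3 and 57.9 CPM in control and 49.7, 52.1 and 58.9 CPM after neomycin. Neomycin 3 reached the control samples and the others lay below them, so that the 95% interval of the log2 fold change ran from −0.32 to 0.02 (estimate −0.15, adjusted p = 0.174). Wtip (chr7:34109543-34133268, minus strand) was at 49.7, 59.3 and 64.4 CPM in control and 57.2, 64.7 and 66.6 CPM after neomycin. The spread within control was wide, and the interval of the Wtip estimate of 0.12 ran from −0.09 to 0.33 (adjusted p = 0.370). Both intervals lie above the estimate for Nf2 (−0.83), while that of Ajuba includes the estimate for Frmd6 (−0.30). Differences between the LIM genes and the others were not tested.

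TEAD factors, which carry YAP to DNA, bind a short motif written GGAATG, and in places YAP with TEAD drives genes that restrain it. The promoters of these genes were therefore searched on both strands for GGAATG (reverse complement CATTCC, no overlap with another motif), a choice made after the sequences were seen. RefSeq (GRCm38.p6) gave 11 windows for the 10 genes, each from 250 bases before to 50 after a start site, with 2 for Nf2. The windows below are those that hold the motif, from the LIM genes, which did not pass the test, and from Wwc2, Amotl2 and Ptpn14, which fell; they read 5′ to 3′ with each match in capitals. Wtip lies on chr7:34133219-34133518 (minus strand), Ajuba on chr14:54577612-54577911 (minus), Wwc2 on chr8:47990495-47990794 (minus), Amotl2 on chr9:102717554-102717853 (plus) and Ptpn14 on chr1:189728018-189728317 (plus).
Wtip: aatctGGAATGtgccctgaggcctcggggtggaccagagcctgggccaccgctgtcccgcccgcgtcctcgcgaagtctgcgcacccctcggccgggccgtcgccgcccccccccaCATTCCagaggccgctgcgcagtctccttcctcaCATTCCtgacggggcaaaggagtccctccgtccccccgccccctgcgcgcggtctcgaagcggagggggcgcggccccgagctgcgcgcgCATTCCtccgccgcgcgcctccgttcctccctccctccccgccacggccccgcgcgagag
Ajuba: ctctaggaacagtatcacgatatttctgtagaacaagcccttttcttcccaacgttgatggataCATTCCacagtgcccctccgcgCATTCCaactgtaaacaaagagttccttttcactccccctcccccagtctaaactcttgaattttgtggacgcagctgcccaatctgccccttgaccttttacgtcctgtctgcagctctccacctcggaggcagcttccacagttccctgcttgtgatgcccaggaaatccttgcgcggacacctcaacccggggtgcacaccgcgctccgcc
Wwc2: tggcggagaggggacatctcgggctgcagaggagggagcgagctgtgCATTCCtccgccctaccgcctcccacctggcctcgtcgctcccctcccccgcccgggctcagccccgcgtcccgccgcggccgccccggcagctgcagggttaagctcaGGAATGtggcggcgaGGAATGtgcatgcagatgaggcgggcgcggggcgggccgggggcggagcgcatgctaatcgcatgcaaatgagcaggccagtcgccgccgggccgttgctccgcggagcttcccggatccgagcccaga
Amotl2: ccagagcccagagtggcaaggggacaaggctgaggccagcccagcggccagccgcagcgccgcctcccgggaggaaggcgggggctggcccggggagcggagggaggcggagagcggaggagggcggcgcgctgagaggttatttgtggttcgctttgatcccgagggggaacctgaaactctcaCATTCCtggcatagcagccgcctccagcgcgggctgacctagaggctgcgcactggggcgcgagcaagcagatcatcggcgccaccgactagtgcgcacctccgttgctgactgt
Ptpn14: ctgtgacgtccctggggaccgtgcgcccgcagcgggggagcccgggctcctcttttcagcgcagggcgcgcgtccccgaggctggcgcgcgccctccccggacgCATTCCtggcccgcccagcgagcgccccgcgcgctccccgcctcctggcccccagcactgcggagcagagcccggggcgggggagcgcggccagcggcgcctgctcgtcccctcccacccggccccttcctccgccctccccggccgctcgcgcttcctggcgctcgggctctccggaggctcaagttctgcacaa

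The Wtip window held 4 matches, at 245, 134, 100 and 10 bases before the start. Wwc2 held 3, at 203, 94 and 79 bases, Ajuba 2, at 186 and 164 bases, Amotl2 1, at 65 bases, and Ptpn14 1, at 146 bases. The windows of Nf2, Wwc1, Amotl1, Frmd6 and Amot held no match, which says only that these letters are not there. Of 32851 mouse promoter windows of the same length, 14.7% held at least 1 match, 1.36% at least 2, 0.131% at least 3 and 6 windows at least 4. Wtip had the most matches and did not pass the test, Wwc2 had 3 and fell, and Nf2 had 0 and fell the most. A relation between the number of matches and the change was not tested. A match is a description of the sequence and no proof of binding, and for Amot, Amotl1, Amotl2, Wwc2 and 1 of the Nf2 windows the RefSeq start lies inside the gene as GENCODE annotates it, so other start sites exist and the matches of Wwc2 and Amotl2 lie within the annotated gene.

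**Figure D3:**
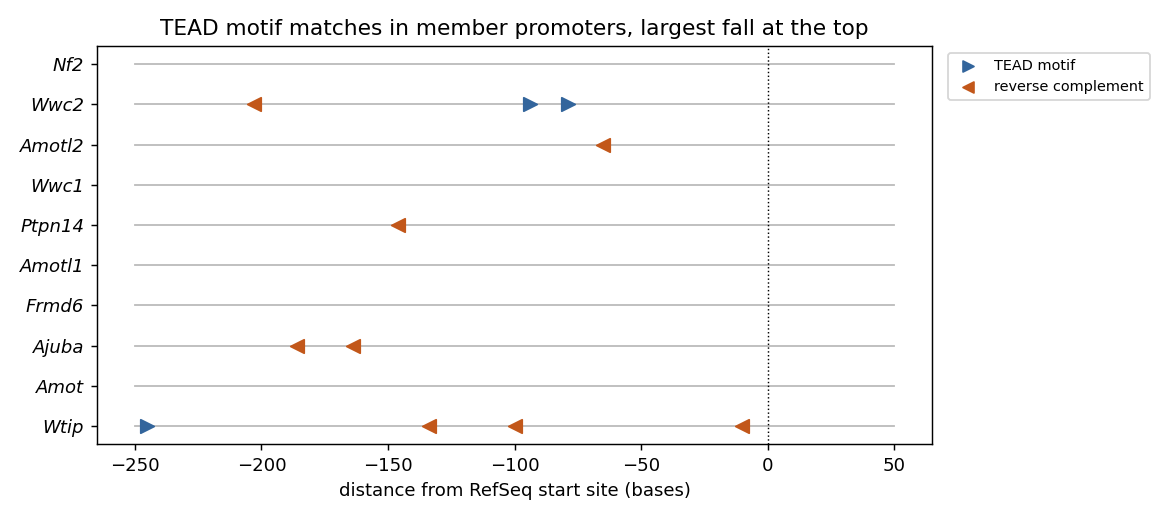
Matches to GGAATG (blue) or its reverse complement (orange) by distance in bases from the RefSeq start site (dotted line), with genes ordered by log2 fold change from the largest fall at the top. Wtip, at the bottom, holds 4 matches and Nf2, at the top, holds 0 in either of its windows.

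To compare levels between genes, CPM was divided by the length of all exons in kilobases. On this per-length scale Wwc1 was highest in control, at 31.9 ± 2.10 CPM per kb (SD, n = 3), followed by Nf2 at 25.4 ± 1.89, Wtip at 24.3 ± 3.13, Amotl2 at 20.5 ± 1.90 and Ajuba at 16.3 ± 0.482. Amotl1 stood at 10.1 ± 1.37, Frmd6 at 5.73 ± 0.732, Ptpn14 at 4.70 ± 0.702, Amot at 4.42 ± 0.287 and Wwc2 at 3.43 ± 0.429 CPM per kb. Wwc1 was 9.30-fold above Wwc2, its own paralog, when all exons were taken as the length. The gap was smaller with the longest transcript as the length (34.9 against 5.44). Neighbours in this order whose samples overlapped were Nf2 and Wtip, Wtip and Amotl2, Frmd6 and Ptpn14, and Ptpn14 and Amot. With the longest transcript in place of all exons, Nf2 (36.8) stood above Wwc1 (34.9) and Amot (5.34) just below Wwc2 (5.44). After neomycin, Wtip at 26.4 and Wwc1 at 23.3 CPM per kb led, with overlapping samples, and Nf2 was at 14.3, level with Ajuba and Amotl2 at 14.7 each; Wwc2 was at 2.06.

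**Figure D4:**
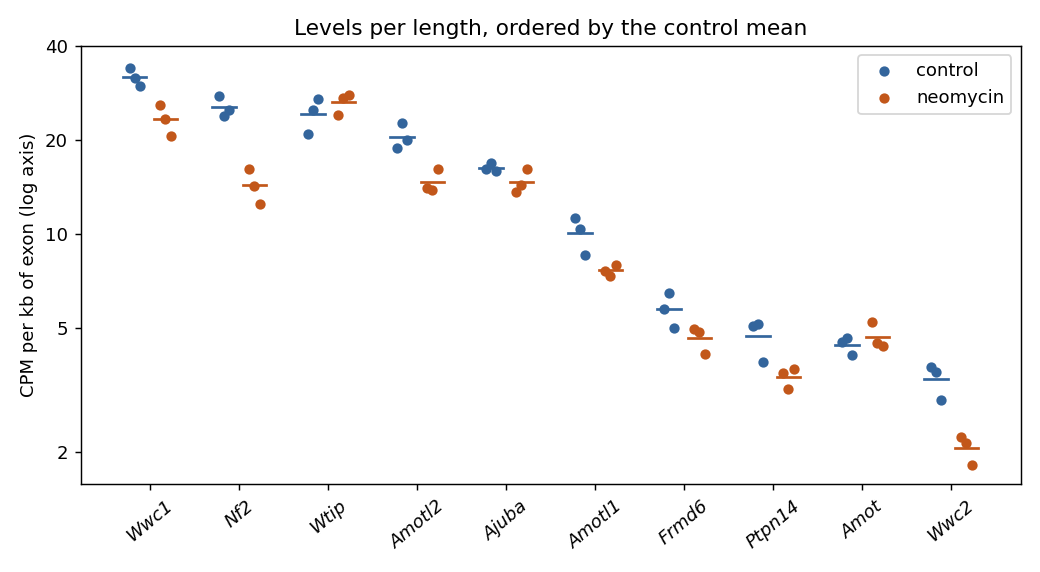
Level of each gene in CPM per kb of exon (log axis) in the control (blue) and neomycin (orange) samples, with points for samples and lines for group means. Wwc1 (31.9) and Nf2 (25.4) lead in control, and Wtip (26.4) leads after neomycin.

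Within families, the share of each paralog was taken on the same per-length scale. Of the summed angiomotin level, Amot made 12.6 ± 0.355% in control and 17.4 ± 2.05% after neomycin (SD, n = 3), with no overlap between the groups. Amotl2 went from 58.6 ± 3.62% to 54.3 ± 2.30%, with overlap, and Amotl1 made 28.7 ± 3.30% and 28.3 ± 0.426%. Of Wtip, Ajuba and their relative Limd1, Wtip made 46.1 ± 3.67% in control and 51.5 ± 1.53% after neomycin, again with no overlap; this difference of 5.37 percentage points was 3.38 without control 1. Wwc1 went from 90.3% to 91.9% of the Wwc1 and Wwc2 level, and Ptpn14 from 66.1% to 69.4% of the Ptpn14 and Ptpn21 level, both with no overlap. Division by exon length does not remove the length trend of the fold changes. Its removal took Wwc1 and Wwc2 from −0.45 and −0.73 to −0.40 and −0.48 on the log2 scale. It took Ptpn14 and Ptpn21 from −0.44 and −0.64 to −0.18 and −0.49. The shares were not recomputed with the trend removed. The exact two-sided permutation test gave p = 0.1 for each of Amot, Wtip, Wwc1 and Ptpn14, the smallest p that 3 against 3 samples allow, and 0.2 after Benjamini-Hochberg adjustment over the 8 shares compared. No share therefore passed a threshold of 0.05, and the design could not have let one pass.

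In the rest of the pathway, falls were spread across most groups. Of 11 core kinases and adaptors, 7 were lower and 0 higher, among them Lats2 (log2 fold change −0.59, adjusted p = 0.000762), Lats1 (−0.28, 0.0225) and Mob1a (−0.98, 0.000539), an adaptor that activates LATS, with Taok2, an upstream kinase gene, falling least (−0.24, 0.0410). The core calls were 4 without neomycin 2. With the length trend removed, 4 core genes were lower and 1, Stk3, was higher (0.20, adjusted p = 0.0466). In that fit Lats1 (−0.14, 0.145) and Taok2 (−0.05, 0.599) were no longer called, and Yap1 was at 0.03 (0.778). Of the MST kinase genes Stk3 and Stk4, Stk3 was not called as fitted (0.10, adjusted p = 0.335). Stk4 was lower both as fitted (−0.33, 0.00799) and with the trend removed (−0.24, 0.0243). Yap1 (162 CPM in control, 146 after neomycin, log2 fold change −0.15, adjusted p = 0.116) and Wwtr1, which encodes TAZ (−0.12, 0.198), did not pass the test. Among the 7 genes of YAP, TAZ, TEAD and VGLL4, only Vgll4, a competitor of YAP for TEAD, was lower (−0.52, adjusted p = 0.00179); with no scaling factors 3 were called. Of 19 genes that YAP activates, 7 were lower and 3 higher. The list leaves out the 10 regulators and the core genes, so any YAP targets among those are not counted here. The calls ran from Ankrd1 (−1.16, adjusted p = 0.000878) to Gadd45a (0.35, 0.0429), and these 10 calls were 6 without control 2. With the length trend removed 8 were lower and 2 higher, and Gadd45a was not called (0.15, adjusted p = 0.284).

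Of 22 genes of apical polarity and junction scaffolds, the proteins beside which these regulators sit, 9 were lower and 0 higher. Magi3, a scaffold of tight junctions, fell most (log2 fold change −1.0, adjusted p = 1.14e-05), and Tjp3 fell least (−0.22, 0.0439). The 9 calls were 3 without neomycin 2, 4 without neomycin 3 and 5 without control 1 or control 2. With the length trend removed 4 were lower and 1, Crb2, was higher (0.31, adjusted p = 0.0215). Crb2, Stk3 and Stk4 were named after their values were seen. Of 8 paralogs and close relatives of the 10 genes, 3 were lower, including Ptpn21, the paralog of Ptpn14 (−0.64, adjusted p = 0.00148), and Limd1 (−0.24, 0.0275). With the length trend removed 2 were lower, and Limd1 was not called (−0.14, adjusted p = 0.119). As fitted without that correction, each of these lists was lower in a larger share than the 16.1% of all genes, apart from the YAP, TAZ, TEAD and VGLL4 genes at 1 of 7. With the length trend removed, 12.3% of all genes in that fit were lower and 11.5% higher. In it 4 of 11 core, 8 of 19 target, 4 of 22 junction, 2 of 8 related and 1 of 7 YAP, TAZ, TEAD and VGLL4 genes were lower. The part of the HC and other marker changes in these counts was not tested.

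**Figure D5:**
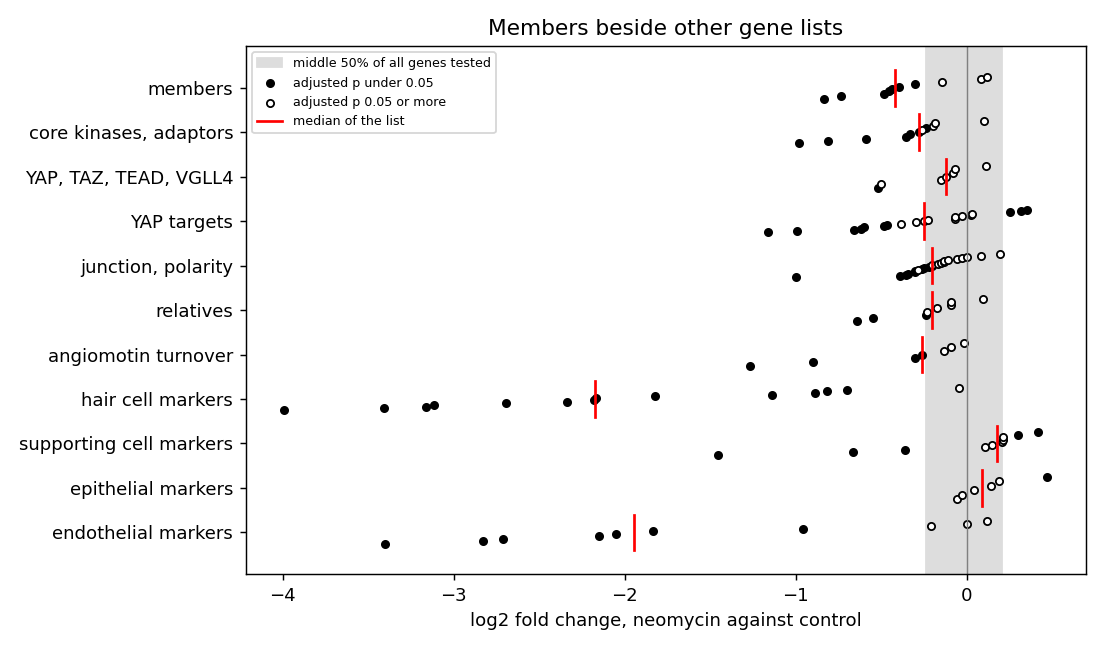
log2 fold change, neomycin against control, of every gene of the 10 regulators and of the other lists, filled where the adjusted p was under 0.05, with the median of each list in red and the middle 50% of all genes tested in grey. The 10 regulators have a median of −0.42, and the HC markers a median of −2.17.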

How the data were processed

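The authors trimmed reads with Trimmomatic 0.23 after CASAVA 1.8, aligned them with HISAT2 to mm10 and counted them per gene symbol with HTSeq. The deposited values are raw counts, and the strand setting was not given in the sources used here. Counts of 3 control and 3 neomycin samples (50471116 to 66068108 per sample) were tested with edgeR 4.0.16 (R 4.3.3), by the quasi-likelihood test with TMM factors and filterByExpr, over 15988 genes with Benjamini-Hochberg adjustment. Calls needed an adjusted p under 0.05, and a second rule added the study's fold change over 1.5. The study used DESeq2, which was run as an alternative (1.42.0), as was limma-voom (3.58.1). Exon lengths came from GENCODE vM21. In the length correction, a lowess trend (span 0.3) on exon length was removed per sample. The 15 alternatives also covered scaling, low-count filters, the replicate block and leaving out each sample. Simulated data over 15847 genes were made for this comparison. In them, 84 of 100 genes with a log2 change of 1 and 57 of 100 with 0.5 were recovered, with 8 false calls. No other gene was changed in the simulation and it held no length trend, so it does not give the power in the real data. All 10 regulators were named; from each other list the called genes with the lowest and highest log2 fold change were named, with Yap1, Wwtr1, Lats1, Lats2, Limd1 and Ptpn21. The regulators and lists were chosen with earlier results of these data known, so counts over them are descriptions.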

Additional observations from a re-analysis of the deposited data

How the results depend on the processing

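Of the 10 regulators, Nf2, Wwc2, Amotl2 and Wwc1 kept their direction and call in all 15 alternatives. The number called was 7, and ranged from 5 to 7 when 1 sample was left out; it was 6 with limma-voom and 5 with the gene length correction. With a fold change over 1.5 also required it went from 2 to 1 with the length correction, alone or with the replicate block. The Wtip log2 fold change reversed to −0.00038 with the length correction, and that of Amot to −0.0019 without neomycin 1, in a range up to 0.13 over the samples left out. Leaving out 1 sample moved the number of all genes called from 4629 to between 2518 (without neomycin 2) and 5341, with 2567 without control 2 and 3001 without neomycin 3, that of angiomotin turnover genes from 4 to between 2 and 4, of core genes from 7 to between 4 and 8, of YAP targets from 10 to between 6 and 11, and of junction genes from 9 to between 3 and 9. With the length correction, 5 junction genes (4 lower, 1 higher) and 2 turnover genes were called, and 2 turnover genes when the replicate block was added. Of YAP, TAZ, TEAD and VGLL4 genes, 3 were called with no scaling factors and 2 with the replicate block. With no scaling factors 70.3% of all called genes were lower, against 55.5%, and the median of all genes moved by −0.07. Without length, the share of Wwc1 differed by 3.18 percentage points between groups, against 1.54. The cause of these moves was not tested.

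Deviations of same-numbered samples from their group means correlated at 0.17, 0.026 and 0.095. Those of samples with unlike numbers correlated at −0.13 to 0.032. Whether the replicate numbers mark a pairing was not tested. With the replicate block, 6014 genes were called, and 7 of the 10 regulators.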

Other observations

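Tankyrases and ubiquitin ligases are known to act on angiomotin protein, and the deubiquitinase USP9X stabilises it. Of 7 genes of this group, 4 were lower after neomycin and 0 higher, against 16.1% and 12.9% of all genes. Tnks, a tankyrase gene, went from a mean of 25.8 to 10.8 CPM (log2 fold change −1.27, adjusted p = 0.00188), and Itch, a ligase gene, fell least (−0.26, 0.0235). Usp9x fell as well (−0.90, adjusted p = 0.000204); it was named after its value was seen. Calls in this group were 2 without control 1, control 2 or neomycin 2. They were also 2, both lower, with the length trend removed, where 12.3% of all genes were lower. Itch was not called in that fit (−0.07, adjusted p = 0.490).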
